A study of Mus musculus with 6 samples.

Results

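The genes described here encode the caveolins, the cavins and the proteins that hold or shape caveolae at the plasma membrane. They are 10 genes chosen by name, Cav1, Cav2, Cav3, Cavin1, Cavin2, Cavin3, Cavin4, Ehd2, Pacsin2 and Pacsin3, and all 10 have a row among the 22375 rows of the deposited table. RNA-seq was performed on C2C12 cells, an established line of mouse myoblasts that fuse into muscle fibers when they differentiate. The CON group held 3 libraries of unstretched cells, and the 4H group held 3 libraries of cells stretched cyclically at 15% elongation for 4 h. No transgene or added agent is named for either group, and stretched cells were grown on elastic plates coated with poly-lysine. The comparison belongs to a study of how mechanical load acts on muscle cells and fibrosis-related genes, and it shows here which genes of the caveola differed between stretched and unstretched myoblasts.

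Caveolae are small flask-shaped pits of the plasma membrane that are abundant in muscle, adipocytes and endothelium. Caveolins are inserted into the inner leaflet of the membrane, and cavins assemble on them from the cytosol as a coat. When membrane tension rises, caveolae can flatten and release membrane area, so they are regarded as a membrane reserve of mechanically loaded cells. EHD2 and the PACSIN proteins act at the neck of the pit.

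Values are FPKM, the fragments of a gene per kilobase of its transcript, scaled to the mapped fragments of the library, so the levels of different genes in 1 library can be set side by side. The fragments behind a value are not known from FPKM, and library depth is unknown. FPKM summed to 395790 to 397260 per library in the CON group and to 385146 to 387516 in the 4H group. Across genes, which are not independent replicates, log2 values of 2 libraries correlated with Pearson's r of 0.992 to 0.993 within groups and 0.967 to 0.970 between groups. The labels number the libraries as replicate biosamples without saying whether they came from separate cultures, so p values measure the spread between these libraries, which may be technical. For the comparison, log2(FPKM + 0.5) entered a limma fit of the 11593 genes whose mean reached 0.5 FPKM. A gene is said to have risen or fallen at a Benjamini-Hochberg adjusted p of at most 0.05, and it is called differentially expressed if the absolute log2 fold change also reached 1.

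Cells of both groups carried the markers of myoblasts. Of 6 myoblast markers, 5 passed the filter, of which Myod1, Cdh15, Des and Itga7 rose and Myf5 fell. Myod1 rose by 1.74 on the log2 scale, past both thresholds. The 6 markers summed to 154.0 to 158 FPKM in the CON group and to 227 to 239 FPKM in the 4H group. Pax7 was below the filter. Markers of differentiated muscle were nearly absent, with a summed level of 1.08 to 1.25 FPKM over 8 genes in the CON group and 1.28 to 1.46 FPKM in the 4H group, and Mymx and Actc1 were listed at 0 in all libraries. Mymk, the only one of them tested, rose from 0.525 ± 0.165 to 1.01 ± 0.1202 FPKM (SD, n = 3 each; limma, adjusted p = 0.0194), and Myog was at a mean of 0.217 FPKM in CON and 0.0265 FPKM in 4H, below the filter. Of the other cell types with many caveolae, endothelium had 5 markers that summed to 0.101 to 0.122 FPKM in the CON group and 0.254 to 0.387 FPKM in the 4H group, with Emcn at 0. The 5 adipocyte markers summed to 7.47 to 9.27 FPKM and 11.1 to 11.7 FPKM, nearly all of it from Pparg, which rose by 0.36 on the log2 scale, while Plin1 and Lep were at 0. Of 5 macrophage and leukocyte markers, Ptprc and Adgre1 were at 0 in every library, although the summed level was 6.82 to 8.55 FPKM in the CON group and 16.6 to 18.6 FPKM in the 4H group, mostly from Cd68. Cd68, by 1.07 in log2, and Csf1r, by 1.61, were past both thresholds, and Csf1r, at a mean of 0.00906 FPKM in CON and 1.08 FPKM in 4H, reached the filter only through the 4H group. The 4 epithelial markers summed to 0.0401 to 0.117 FPKM and 0.319 to 0.553 FPKM, with Epcam at 0, and the 3 smooth muscle markers to 20.1 to 21.02 FPKM in the CON group and 30.2 to 32.8 FPKM in the 4H group, nearly all of it from Smtn. The part of these markers in the results below was not tested. In a bulk sample, fewer cells of a type and less RNA per cell cannot be told apart.

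Of the 10 genes, 9 passed the filter and were tested. Cav2, Cav1, Cavin2, Ehd2 and Cavin1 rose in the 4H group, Cavin4 fell, and Cavin3, Pacsin2 and Pacsin3 did not pass the test. These 6 of 9 genes (66.7%) stand against 46.7% of all tested genes that passed an adjusted p of 0.05, and the 5 that rose (55.6%) against 22.6% of all tested genes that rose. None was differentially expressed by limma with both thresholds, where 3.88% of all tested genes were (2.61% higher in 4H and 1.28% lower), and 7 of the 9 (77.8%) had an unadjusted p below 0.05, against 53.6% of all tested genes. Libraries of the groups did not overlap in 7 of the 9 genes (77.8%), and in 56.7% of all tested genes, with 5 genes higher in 4H (27.5% of all tested genes) and 2 lower (29.2%). The median log2 fold change was 0.11 over the 9 genes and -0.01 over all tested genes. With so few genes, chosen with earlier results of these data known, these shares are a description of the list.

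**Figure D1:**
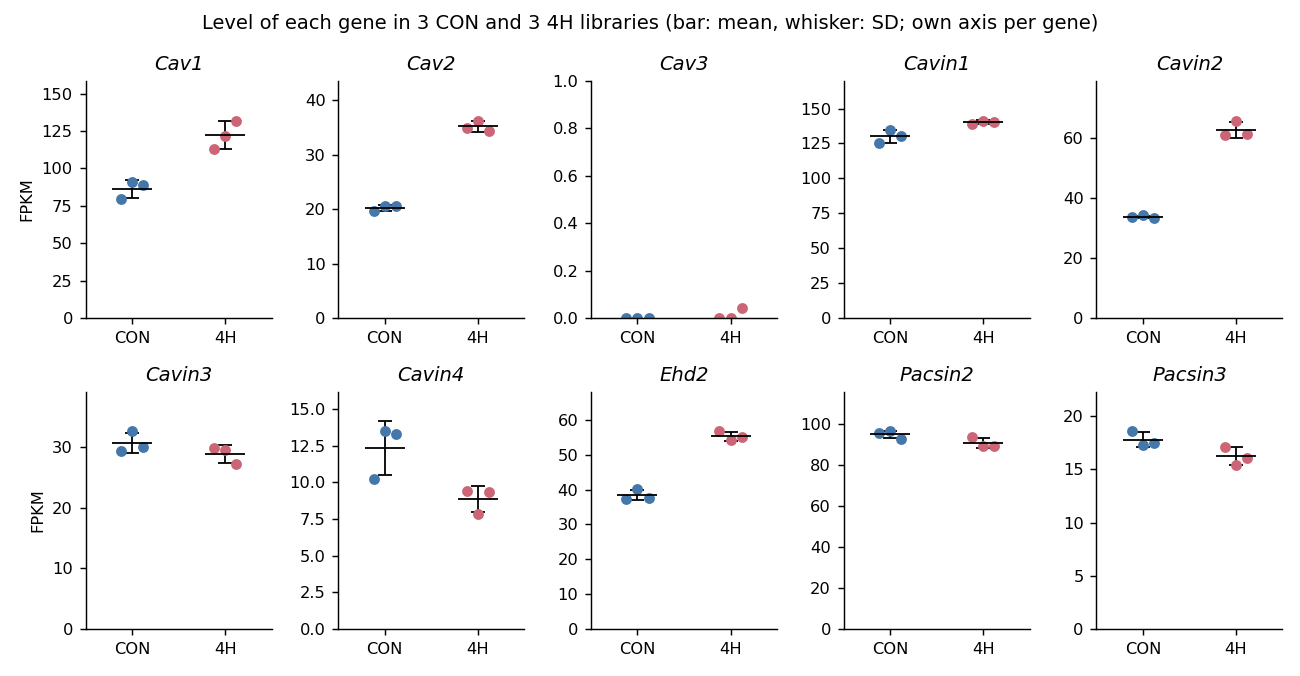
FPKM (vertical axes, each gene on its own scale from 0) of the 10 genes in the 3 CON libraries (blue) and the 3 4H libraries (red), with the mean as a bar and the SD as a whisker, except for Cav3, which is shown as points only. All 4H libraries lie above all CON libraries for Cav1, Cav2, Cavin1, Cavin2 and Ehd2, and below them for Cavin4 and Pacsin3.

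Caveolin-1 is the structural protein that caveolae outside striated muscle fibers require, and caveolin-2 is its partner, which depends on caveolin-1 to reach the cell surface. Cav2 was at 19.6, 20.5 and 20.5 FPKM in CON, against 35.0, 36.2 and 34.3 FPKM in 4H. Every stretched library was thus well above every unstretched one, and the spread within each group was small. The mean rose from 20.2 ± 0.517 to 35.2 ± 0.976 FPKM (SD, n = 3 each), 1.74 times the CON mean, a gain on the log2 scale of 0.78 with an SE of 0.04 (limma, adjusted p = 2.62e-06). Of all tested genes, 4.49% had a larger log2 fold change. Cav1 was at 79.4, 90.7 and 88.6 FPKM in CON, against 113, 122 and 132 FPKM in 4H. Its 4H libraries differed more among themselves than those of Cav2, but the lowest was still above the highest CON library. Its mean rose from 86.2 ± 6.05 to 122 ± 9.48 FPKM, 1.42 times the CON mean, a gain on the log2 scale of 0.50 with an SE of 0.07 (limma, adjusted p = 0.000464). The gain in level was larger for Cav1, 36.1 FPKM, than for Cav2, 14.9 FPKM. The ratio of Cav1 to Cav2 was 4.04 to 4.42 in the CON libraries and 3.23 to 3.85 in the 4H libraries, and the groups did not overlap.

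Caveolin-3 is the caveolin of mature muscle fibers. Cav3 was listed at 0 in all CON libraries and in 4H replicates 1 and 2, and at 0.0421 FPKM in 4H replicate 3. It did not pass the filter, and no change can be given. Caveolin transcripts, nearly all from Cav1 and Cav2, had a summed level of 99.0 to 111 FPKM in the CON group and 148 to 166 FPKM in the 4H group, with Cav2 making up 19.0% ± 0.718 and 22.4% ± 1.56 of it (SD, n = 3 each).

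Cav2 and Cav1 lie next to each other on chromosome 6 in the same orientation. In GENCODE M21 on GRCm38, the assembly also named mm10, Cav2 (ENSMUSG00000000058) spans chr6:17281185-17289115 and Cav1 (ENSMUSG00000007655) spans chr6:17306335-17341452, with a gap of 17220 bases between them. The next protein-coding genes on the 2 sides, which lie outside the rule for named genes and were picked after their values were seen, are Tes, encoding the focal adhesion protein testin, and Met, encoding the receptor of hepatocyte growth factor. Tes rose from 42.9 ± 0.513 to 76.1 ± 1.61 FPKM (SD, n = 3 each), a gain on the log2 scale of 0.82 with an SE of 0.03 (limma, adjusted p = 5.60e-07). Met rose from 22.4 ± 1.26 to 30.5 ± 1.85 FPKM, a gain on the log2 scale of 0.43 with an SE of 0.06 (limma, adjusted p = 0.000526). All 4 genes rose, in the order Tes, Cav2, Cav1 and Met along the chromosome, where 22.6% of all tested genes rose. This run was looked at after the values were seen and carries no test. The exons of Cav1 and Cav2 overlap no other annotated gene, while those of Tes overlap 1.

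**Figure D2:**
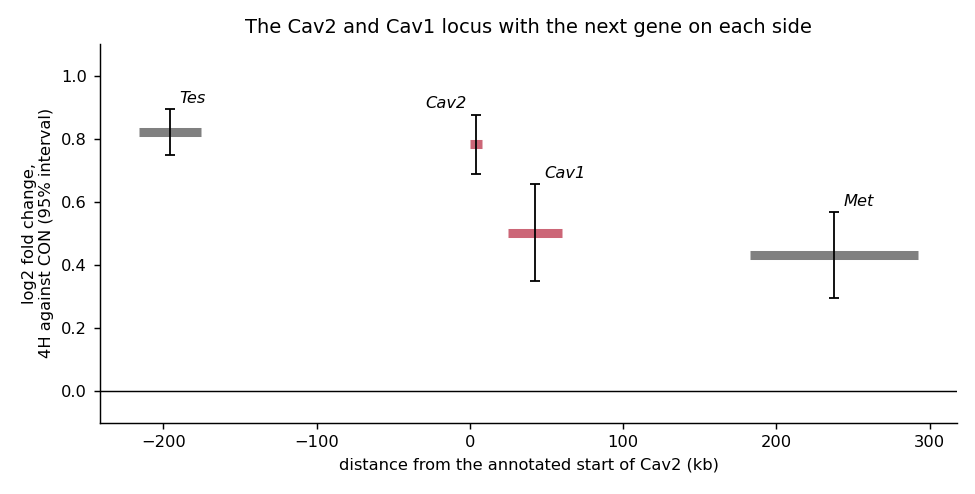
Log2 fold change of the 4H group against the CON group (vertical axis) for Tes, Cav2, Cav1 and Met, drawn as horizontal bars over the annotated extent of each gene in kb from the start of Cav2 (horizontal axis), with 95% intervals of limma as whiskers. All 4 intervals lie above 0, and the values are 0.82, 0.78, 0.50 and 0.43 from left to right.

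Cavins form the coat of the caveola, and Cavin1 is the one that caveola formation requires. Cavin1 was the most abundant of the 10 genes in both groups, at 125, 135 and 130.1 FPKM in CON, against 139, 141 and 141 FPKM in 4H. The groups did not overlap, but the gap between them was narrow. Its mean rose from 130.1 ± 4.72 to 140.3 ± 1.27 FPKM (SD, n = 3 each), 1.08 times the CON mean, a gain on the log2 scale of 0.11 with an SE of 0.03 (limma, adjusted p = 0.0263). This call was lost without CON replicate 1 (adjusted p = 0.0801), CON replicate 3 (0.0666), 4H replicate 2 (0.0751) or 4H replicate 3 (0.0647), and with limma without a trend (0.0899). Over the 17 alternatives, the adjusted p of Cavin1 ranged from 0.00749 to 0.0899.

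Cavin2, which binds phosphatidylserine and promotes the curvature of the caveola membrane, had the largest log2 fold change of the 9 tested genes. It was at 33.7, 34.2 and 33.3 FPKM in CON, against 60.8, 65.8 and 61.4 FPKM in 4H. The CON libraries were nearly equal, and all 4H libraries stood far above them. Its mean rose from 33.7 ± 0.434 to 62.7 ± 2.71 FPKM (SD, n = 3 each), 1.86 times the CON mean, a gain on the log2 scale of 0.88 with an SE of 0.04 (limma, adjusted p = 1.15e-06). The 95% interval, 0.79 to 0.97, stayed below the threshold of 1 for differential expression. Of all tested genes, 3.56% had a larger log2 fold change.

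Neither of the other cavins passed the test as higher. Cavin3, which is involved in the transport of caveolae along microtubules, was at 29.4, 32.7 and 30.1 FPKM in CON, against 29.9, 29.6 and 27.2 FPKM in 4H. The groups overlapped, and the log2 fold change of -0.09 had a 95% interval of -0.21 to 0.04 (adjusted p = 0.235 from limma). Cavin4, a cavin of striated muscle, was at 10.2, 13.5 and 13.3 FPKM in CON, against 9.39, 7.84 and 9.37 FPKM in 4H. CON replicate 1 lay apart from the other CON libraries and close to the 4H libraries, yet still above them. The mean fell from 12.4 ± 1.83 to 8.86 ± 0.889 FPKM (SD, n = 3 each), a change on the log2 scale of -0.45 with an SE of 0.12 (limma, adjusted p = 0.0130). This is the 1 fall among the 9 genes, where 24.1% of all tested genes fell. The call held under all 17 alternatives: without CON replicate 1 the log2 fold change was -0.58 (adjusted p = 0.0024), and over the 17 alternatives the adjusted p ranged up to 0.0493, the value without CON replicate 3. Cavin4 starts 383 bases after the end of Tmeff1 on the same strand, and Tmeff1, a gene outside the rule for named genes, fell by 0.81 on the log2 scale (adjusted p = 8.49e-05 from limma). The part of Tmeff1 reads in the level of Cavin4 was not tested.

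The makeup of the cavin transcripts differed between the groups. Cavins summed to 199 to 215 FPKM in the CON libraries and to 238 to 245 FPKM in the 4H libraries. Cavin2 made up 16.3% ± 0.566 of this sum in the CON group and 26.0% ± 0.763 in the 4H group (SD, n = 3 each), and Cavin1 made up 62.9% ± 0.210 and 58.3% ± 0.583. The ratio of Cavin2 to Cavin3 was 1.05 to 1.15 in the CON libraries and 2.03 to 2.26 in the 4H libraries. Relative to Cavin1, Cav1 was at 0.633, 0.673 and 0.681 in the CON libraries and at 0.814, 0.863 and 0.939 in the 4H libraries. Ratios to Cavin1 in the 4H libraries lay above those of all CON libraries for Cav1, Cavin2 and Ehd2, and below them for Cavin3 and Cavin4. All these ratios share the denominator Cavin1, whose own level rose, and the FPKM of Cavin3 by itself overlapped between the groups. Such ratios were not taken over all genes, but by their own levels 56.7% of all tested genes did not overlap between the groups.

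**Figure D3:**
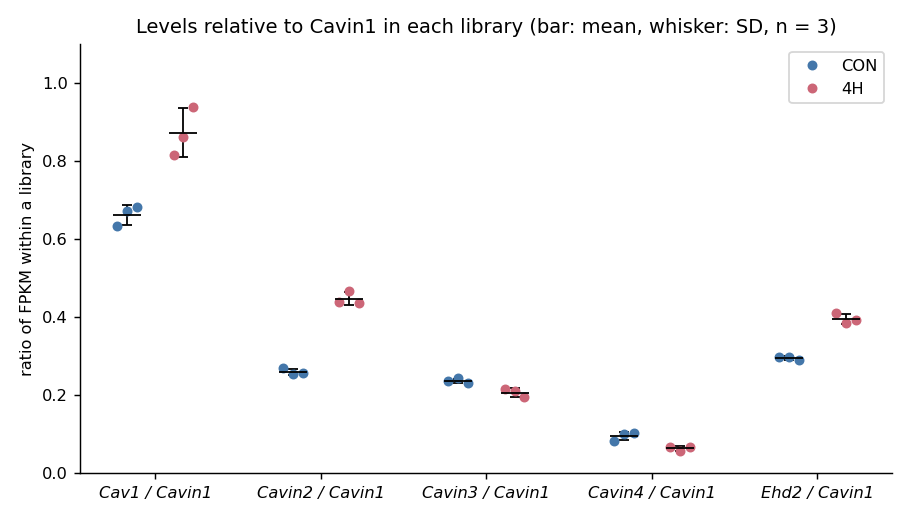
FPKM of Cav1, Cavin2, Cavin3, Cavin4 and Ehd2 divided by the FPKM of Cavin1 in the same library (vertical axis, from 0), for the 3 CON libraries (blue) and the 3 4H libraries (red), with the mean as a bar and the SD as a whisker. The groups do not overlap in any of these ratios, which share 1 denominator, and by their own levels 56.7% of all tested genes did not overlap. The mean ratio is 0.662 in CON and 0.872 in 4H for Cav1, and 0.259 and 0.447 for Cavin2.

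EHD2 is an ATPase that forms rings at the caveola neck and holds caveolae at the cell surface. Ehd2 was at 37.4, 40.2 and 37.6 FPKM in CON, against 56.8, 54.3 and 55.0 FPKM in 4H. The groups were far apart relative to their spread. Its mean rose from 38.4 ± 1.51 to 55.4 ± 1.27 FPKM (SD, n = 3 each), 1.44 times the CON mean, a gain on the log2 scale of 0.52 with an SE of 0.04 (limma, adjusted p = 2.05e-05). The ratio of Ehd2 to Cav1 overlapped between the groups, at 0.425 to 0.472 in the CON libraries and 0.417 to 0.502 in the 4H libraries.

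PACSIN2 is a membrane-bending protein with an F-BAR domain that shapes the caveola neck, and PACSIN3 is a relative of it found mainly in muscle. Pacsin2 was at 95.5, 96.5 and 92.9 FPKM in CON, against 93.6, 89.3 and 89.3 FPKM in 4H. The groups overlapped, and the log2 fold change was -0.07 with a 95% interval of -0.14 to 0.01 (adjusted p = 0.134 from limma). Pacsin3 was at 18.6, 17.3 and 17.5 FPKM in CON, against 17.2, 15.5 and 16.1 FPKM in 4H. All 4H libraries of Pacsin3 were just below all CON libraries, but the log2 fold change of -0.13 did not pass the test after adjustment (95% interval -0.26 to -0.00365, adjusted p = 0.0858 from limma). It passed without 4H replicate 1 (adjusted p = 0.0478) and under none of the other 16 alternatives, over which the adjusted p reached 0.234.

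**Figure D4:**
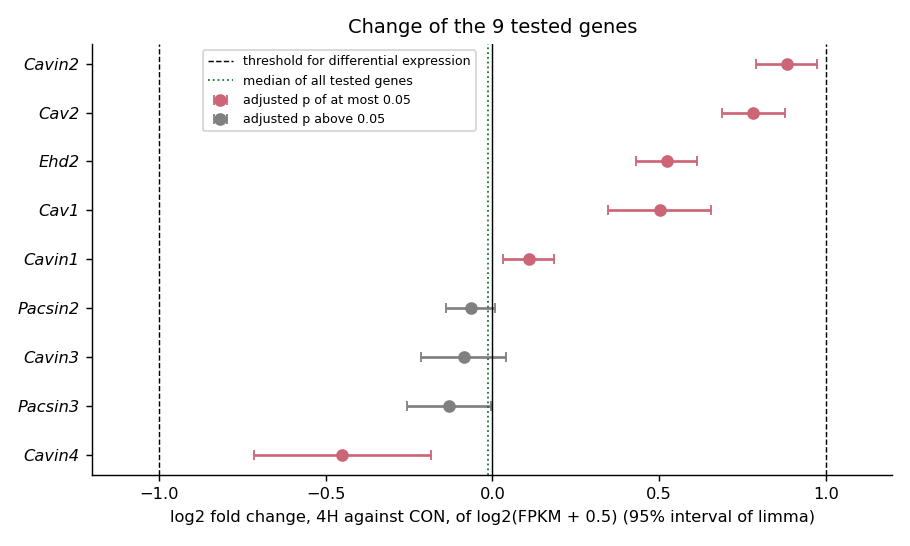
Log2 fold change of the 4H group against the CON group (horizontal axis) for the 9 tested genes, with 95% intervals of limma, in red where the adjusted p was at most 0.05 and in grey otherwise. Cavin2, Cav2, Ehd2 and Cav1 lie between 0.50 and 0.88, all 9 intervals lie between the dashed thresholds for differential expression at -1 and 1, and the dotted line marks the median of all tested genes, -0.01.

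The order of the levels also differed between the groups. In the CON group the means descended from Cavin1 over Pacsin2, Cav1, Ehd2, Cavin2, Cavin3, Cav2, Pacsin3 and Cavin4 to Cav3. In the 4H group they descended from Cavin1 over Cav1, Pacsin2, Cavin2, Ehd2, Cav2, Cavin3, Pacsin3 and Cavin4 to Cav3. The pairs Pacsin2 and Cav1, Ehd2 and Cavin2, and Cavin3 and Cav2 thus stood in opposite order. In every case neighbours in the order did not overlap in the libraries of a group. The narrowest gap was in the CON group, where the lowest library of Cavin2 was at 33.3 FPKM and the highest of Cavin3 at 32.7 FPKM.

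None of the 75-base stretches in the transcripts of the 10 genes occurs, in the same orientation, in a transcript of another gene of GENCODE M21. Cavin3 and Pacsin3 each overlap the exons of 1 gene on the other strand, and since strand use in the counting is not given in the sources used here, their FPKM may include reads from that strand. The exons of the other 8 genes overlap no annotated gene. On GRCm38, Cavin1 (ENSMUSG00000004044) spans chr11:100956733-100970887 on the minus strand, Cavin2 (ENSMUSG00000045954) chr1:51289126-51302960 on the plus strand, and Cavin3 (ENSMUSG00000037060) chr7:105480083-105482300 on the minus strand. Cavin4 (ENSMUSG00000028348) spans chr4:48663514-48673502 and Cav3 (ENSMUSG00000062694) chr6:112459505-112472872, both on the plus strand. Ehd2 (ENSMUSG00000074364) spans chr7:15946958-15967567 and Pacsin2 (ENSMUSG00000016664) chr15:83375607-83464606, both on the minus strand, and Pacsin3 (ENSMUSG00000027257) spans chr2:91255954-91264679 on the plus strand.

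Cavin2, Cav2, Ehd2 and Cav1 had the largest log2 fold changes of the 9 tested genes, and the bases before their RefSeq start sites are shown here from the RefSeq promoter table on GRCm38.p6, which holds 9 of the 10 genes. Each sequence gives the 250 bases before the start, 5′ to 3′ on the strand of the gene, and for Ehd2 the 218 of them that precede its first GENCODE exon. For Cav1, the start that coincides with the start of the annotated gene is shown. Capitals mark matches on either strand to TGANTCA, the binding letters of AP-1 (FOS and JUN) factors, to GGAATG, those of TEAD factors, to CANNTG, the E-box of MyoD and other factors, to GGGCGG, the GC box, or to the CArG box of SRF.
Cav2, chr6:17280935-17281184, plus strand: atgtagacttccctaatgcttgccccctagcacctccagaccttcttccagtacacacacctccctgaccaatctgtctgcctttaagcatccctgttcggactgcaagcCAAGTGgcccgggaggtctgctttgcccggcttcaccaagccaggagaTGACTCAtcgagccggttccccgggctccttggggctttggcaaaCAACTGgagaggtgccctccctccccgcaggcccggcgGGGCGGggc
Cav1, chr6:17306085-17306334, plus strand: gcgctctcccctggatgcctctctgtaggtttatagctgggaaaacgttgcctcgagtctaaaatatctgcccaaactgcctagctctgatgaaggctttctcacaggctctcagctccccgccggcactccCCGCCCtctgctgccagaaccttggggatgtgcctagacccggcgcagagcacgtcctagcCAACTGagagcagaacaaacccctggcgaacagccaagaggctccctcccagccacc
Cavin2, chr1:51288876-51289125, plus strand: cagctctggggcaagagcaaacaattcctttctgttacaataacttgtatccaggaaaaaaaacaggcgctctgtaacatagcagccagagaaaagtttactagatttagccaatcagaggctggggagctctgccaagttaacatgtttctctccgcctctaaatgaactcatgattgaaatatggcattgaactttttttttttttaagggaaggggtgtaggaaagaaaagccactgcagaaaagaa
Ehd2, chr7:15967568-15967785, minus strand: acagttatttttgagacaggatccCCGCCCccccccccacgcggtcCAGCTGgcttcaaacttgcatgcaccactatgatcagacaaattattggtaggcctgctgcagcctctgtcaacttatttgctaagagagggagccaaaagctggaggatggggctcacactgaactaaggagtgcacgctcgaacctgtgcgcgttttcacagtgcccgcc
Cav2 has a TGACTCA match 92 to 86 bases before its start, and 6.75% of the 32851 promoters in the table hold such a match in the same window. Cav2 and Cav1 both have CAACTG, 47 to 42 and 57 to 52 bases before their starts, Cav2 has a CAAGTG 140 to 135 and Ehd2 a CAGCTG 204 to 199 bases before the start, while 66.2% of all promoters hold CANNTG. Both also have a GC box, present in 32.7% of all promoters, as has Ehd2 226 to 221 bases before its start. The window of Cavin2 holds none of the 5 motifs, and none of the 4 windows holds GGAATG (12.6% of all promoters) or a CArG box (1.47%). Beyond these 4 genes, TGACTCA also lies 152 to 146 bases before a RefSeq start of Pacsin2, whose level did not pass the test. CANNTG also lies in windows of Cavin4, which fell, and of Pacsin2, Pacsin3 and Cav3. The GC box also lies in windows of Cavin1, Pacsin2 and Pacsin3, and GGAATG in windows of Cavin1 and Pacsin3. These matches describe letters in a short window and were not tested as binding sites.

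Other genes that act around caveolae and on membrane area were taken from 6 lists, of whose 37 genes 30 passed the filter. Of these, 15 rose, 5 fell and 10 did not pass, so 66.7% changed against 46.7% of all tested genes, and the median log2 fold change was 0.18. None was differentially expressed by limma with both thresholds, and 21 of the 30 had an unadjusted p below 0.05, against 53.6% of all tested genes. With the filter at a mean of 5 FPKM, 4448 of 8622 genes passed an adjusted p of 0.05. The lists were chosen with earlier results of these data known, so these shares only describe the lists. Of the 3 tested relatives of Ehd2, Ehd1 (log2 fold change 0.21, adjusted p = 0.00104) and Ehd4 (0.15, adjusted p = 0.0216) rose. Pacsin1 was listed at 0 in all CON libraries and at 0.245 to 0.681 FPKM in the 4H libraries, below the filter. The flotillins Flot1 and Flot2, which mark membrane domains distinct from caveolae, did not pass the test (log2 fold changes -0.23 and 0.03, adjusted p = 0.0577 and 0.635 from limma).

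The counts of the single lists are small and are read against the 22.6% of all tested genes that rose and the 24.1% that fell. Of 5 tested dynamin and clathrin genes, 1 rose, which is near that share, and 2 fell. Cltb, a clathrin light chain, rose from 30.6 ± 0.785 to 43.0 ± 0.576 FPKM (SD, n = 3 each), or by 0.48 in log2 (limma, adjusted p = 1.83e-05). Dnm2, the dynamin that cuts membrane necks, fell from 46.6 ± 1.90 to 34.9 ± 0.989 FPKM, a log2 change of -0.41 (limma, adjusted p = 0.000114). Of 5 tested regulators and partners of caveolae, 4 rose, led by the kinases Src, by 0.41 in log2 (adjusted p = 6.65e-05), and Abl1, by 0.34 (adjusted p = 0.000348). Of 12 tested genes for other proteins with a membrane-bending BAR domain, 6 rose and 2 fell, the latter a share below that of all tested genes. Bin1, which shapes the transverse tubules of muscle, rose from 77.8 ± 3.76 to 106.7 ± 0.937 FPKM, or by 0.46 in log2 (limma, adjusted p = 3.95e-05), and Snx33 fell from 11.1 ± 0.568 to 7.55 ± 0.686 FPKM, a log2 change of -0.53 (limma, adjusted p = 0.000685). The 3 ERM genes, whose proteins link the membrane to cortical actin, moved in both directions. Ezr, for ezrin, rose by a log2 fold change of 0.49 (adjusted p = 1.08e-05 from limma) and Msn, for moesin, by 0.37 (adjusted p = 5.24e-06), whereas the third, the radixin gene, fell.

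**Figure D5:**
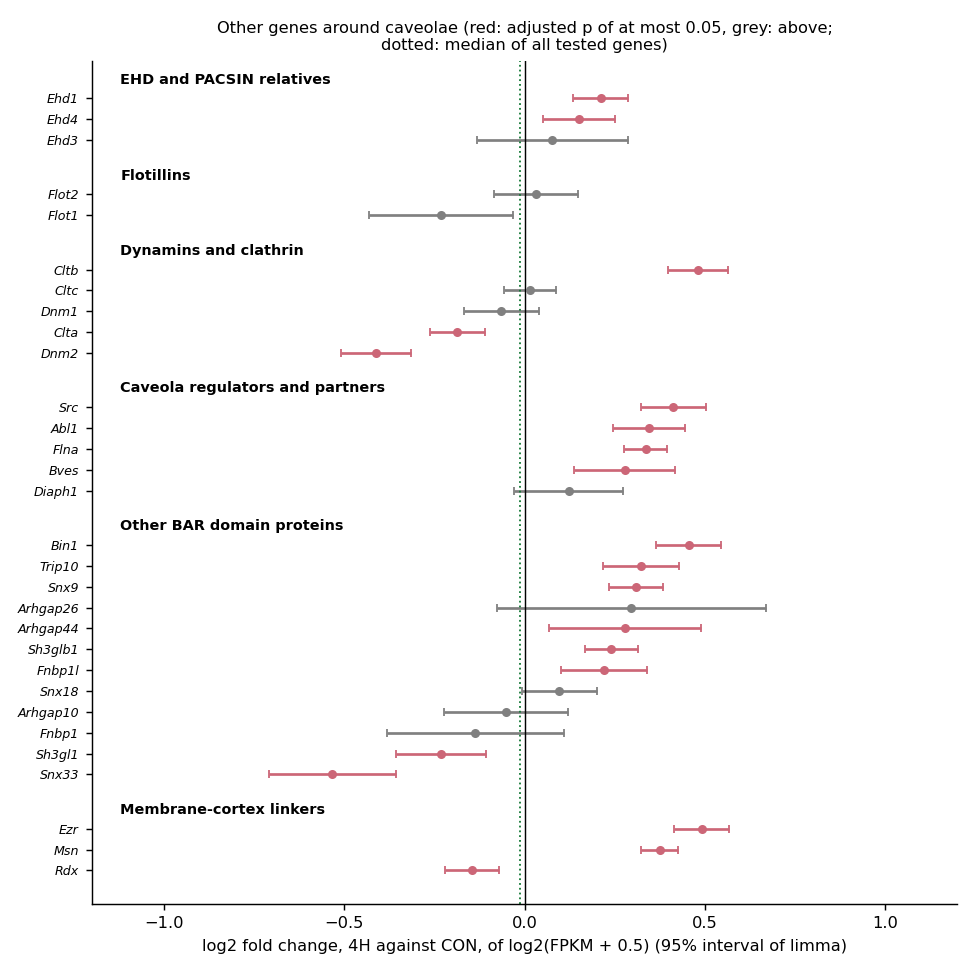
Log2 fold change of the 4H group against the CON group (horizontal axis) for the 30 tested genes of the 6 lists, grouped by list and sorted within it, with 95% intervals of limma, in red where the adjusted p was at most 0.05 and in grey otherwise. Of these genes 15 rose, 5 fell and 10 did not pass, and all values lie between Snx33 at -0.53 and Ezr at 0.49, while the dotted line marks the median of all tested genes, -0.01.

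The genes with profiles most like those of Cav1, Cav2 and Cavin1 were found by the root mean square distance between log2 values over the 6 libraries, each gene set to 0 at its CON mean, among the 8622 genes whose mean reached 5 FPKM. The 3 nearest to Cav2 were Fermt2, for the integrin activator kindlin-2 (distance 0.02), Actn1, for the actin crosslinker alpha-actinin-1 (0.03), and Thbd, for thrombomodulin (0.03). Their log2 fold changes were 0.77, 0.76 and 0.76. The 3 nearest to Cav1 were S100a13, Sertad1 and Pals1, at distances of 0.03, 0.04 and 0.05 and log2 fold changes of 0.50, 0.50 and 0.55. The 3 nearest to Cavin1 were Trpc4ap, Cse1l and Samm50, at distances of 0.01, 0.01 and 0.02. Their log2 fold changes were 0.10, 0.10 and 0.11, with adjusted p = 0.0503, 0.0522 and 0.0436 from limma. As all these genes were picked by distance over the same libraries, the closeness of their fold changes follows from the choice. This likeness is a description over 6 libraries in 2 groups.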

How the data were processed

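RNA-seq values of 3 CON and 3 4H libraries were taken from 1 table of FPKM per gene deposited by the authors, with all of its 6 value columns assigned to a sample by title. Per the labels, libraries were strand-specific and made from poly(A)-selected RNA, and the submitters' processing notes name the build mm10. For the aligner, counter, annotation and strand setting, the entry is: not given in the sources used here. FPKM holds no fragment counts, so no count model was run.

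Values were analysed as log2(FPKM + 0.5) with limma 3.58.1 in R 4.3.3 (trend on mean expression, 2-sided, Benjamini-Hochberg adjustment over all 11593 genes whose mean reached 0.5 FPKM). Fold changes on this scale understate the change of low genes. An exact permutation test of 3 against 3 libraries cannot go below p = 0.1. Simulated data over 11593 genes with 200 changed genes gave a recovery of 100% at an absolute log2 change of 1.5 and 92% at 0.5, with 1.54% false calls. The simulation drew independent noise with a spread smoothed over genes of similar level, and it changed only genes above a low level. In the data 5409 genes passed an adjusted p of 0.05, so these rates do not measure how reliable the calls are here.

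The members and gene lists were chosen with earlier results of these data known. Named were all 10 members, the 2 genes with the largest significant change of each list (a gene past both thresholds would also have been named), the markers, and the 3 genes nearest in profile to Cav1, Cav2 and Cavin1. Neighbouring genes, Flot1, Flot2, Pacsin1 and the radixin gene were named after their values were seen. Gene positions came from GENCODE M21 and promoter sequences from RefSeq, and Cavin3 was not matched in the promoter table. Alternatives covered the pseudocount, the filter, scaling, weights, the trend, a replicate block and leaving out each library.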

Additional observations from a re-analysis of the deposited data

How the results depend on the processing

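Over 17 alternatives, 147 of 153 member values kept their direction and side of the threshold, 5 lost the call (all Cavin1), 1 gained it (Pacsin3) and 0 changed direction. The number of the 9 tested members past an adjusted p of 0.05 was 6, and 5 to 7 when 1 library was left out, with 1 to 2 lower in the 4H group, the second being Pacsin3 without 4H replicate 1. It was 5 without the trend. Of the 30 tested list genes 20 passed. Over all alternatives 18 to 23 list genes passed, and where the filter or the scaling differed, other numbers of genes were tested. No member was differentially expressed under any alternative. Over all genes, 450 passed both thresholds, against 245 when the filter was set at a mean of 5 FPKM, which tests fewer genes, and 703 with each library rescaled to TPM, for which the cause was not tested. With the replicate number of the sample descriptions as a block, 6 members and 452 genes of all passed. Deviations of libraries with the same number correlated at 0.025, -0.093 and -0.126, and the highest correlation, 0.176, joined CON replicate 3 and 4H replicate 2. The titles number the 4H libraries 1, 3 and 4, so by title the shared numbers are 1 (0.025) and 3 (0.176), and a block by title was not run. Neither numbering gave a correlation over 0.1 in every pair, and the libraries were treated as unpaired. Depth in fragments is unknown, which limits the reading of genes at or near 0, such as Cav3.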

Other observations

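Next to the members other than Cav1 and Cav2 lie 16 protein-coding genes, looked at after their values were seen, of which 12 passed the filter. Of these 4 rose, 3 fell and 5 did not pass the test (Smpd1, Bicra, Arfgap3, Ttll1 and Arfgap2), where 22.6% of all tested genes rose and 24.1% fell. Beside Cavin2, Nabp1 rose from 14.3 to 28.0 FPKM, or by 0.95 in log2 (limma, adjusted p = 6.19e-05), and Tmeff2 from 1.18 to 2.01 FPKM, or by 0.58 in log2 (adjusted p = 0.00361), at distances of 162902 and 101856 bases. Beside Cavin1, Stat3 rose by 0.26 in log2 (adjusted p = 0.0168) and Atp6v0a1 by 0.31 (adjusted p = 0.000535). Nop53, 884 bases from Ehd2, fell by 0.37 on the log2 scale (adjusted p = 0.000387), and Ddb2, next to Pacsin3, by 0.31 (adjusted p = 0.0460). The third gene that fell was Tmeff1, next to Cavin4.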
